A study of Mus musculus with 6 samples.

Results

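The genes described here encode the receptors for macrophage colony-stimulating factor (CSF1) and for granulocyte-macrophage colony-stimulating factor (GM-CSF), the ligand CSF1, and the transcription factors that set macrophage identity. They are Csf1r, Csf2ra, Csf2rb, Csf1, Spi1, Maf, Irf8, Cebpa and Cebpb, 9 of the 55487 genes in the expression tables. They were chosen by name for their function, with earlier results of these data known. All 9 passed the filter on low values and were among the 13829 genes tested. Transcript levels were measured by RNA-seq in J774, an established mouse macrophage cell line. Cells received control siRNA or NCOA4 siRNA by liposome-mediated transfection, with 3 biological replicates of each. A small interfering RNA (siRNA) lowers the transcript that it matches, and NCOA4 is the cargo receptor that carries ferritin, the iron storage protein, to the lysosome. The study asked how loss of NCOA4 alters the macrophage transcriptome. All 6 libraries came from this single line, no other cell line or primary macrophage is in the comparison, and the lower Ncoa4 level is a partial loss of its transcript.

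Macrophages depend on CSF1 for survival and growth. Its receptor CSF1R is a tyrosine kinase of the cell surface, which signals through PI3-kinase and the MAP kinases to cyclin D and immediate-early genes. The GM-CSF receptor pairs a ligand-binding alpha chain (CSF2RA) with a signalling beta chain (CSF2RB) that is shared with the IL-3 and IL-5 receptors and acts through JAK2 and STAT5. PU.1, encoded by Spi1, is the master regulator of myeloid cells and drives Csf1r. C/EBPα and C/EBPβ, IRF8 and c-MAF act with it at macrophage enhancers, and c-MAF is also known as a brake on macrophage self-renewal and a regulator of the complement C1q genes.

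Levels are given as TPM, which divides reads by transcript length and library total so that genes can be compared within a library. Rebuilt reads numbered 15268845 to 17996400 per library. Ncoa4 held 19.7, 22.5 and 22.4 TPM in the control siRNA libraries and 9.63, 8.60 and 8.88 TPM in the NCOA4 siRNA libraries, so every library matched its label. Control siRNA replicate 1 stood apart from the other control libraries, with a chi-square per gene of 11.5 and 11.4 against them, where the other control pair gave 3.62 and the NCOA4 siRNA pairs gave 1.95 to 2.34. The macrophage label fitted its markers. Of 18 macrophage markers 15 were expressed at a mean of at least 0.5 TPM, led by Lyz2 at a mean of 5147 TPM over the 6 libraries, while the defining markers of tissue subsets Marco, Timd4 and Cd163 lay under 0.5 TPM (these names were chosen after their values were seen). In bulk samples, fewer cells of a kind and less RNA per cell cannot be told apart.

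Maf was the member that changed most. It rose 1.60-fold with NCOA4 siRNA, while Csf1r rose by a log2 fold change of 0.31 and Csf2rb fell by 0.24 on the log2 scale. A gene passed the test at an adjusted p under 0.05 (limma on log2(TPM + 0.5), Benjamini-Hochberg over all tested genes), and it was differentially expressed if its fold change was also above 1.5. Of the 9 genes, 3 passed, 2 of them higher and 1 lower, and among all tested genes 5.42% passed, 3.11% higher and 2.31% lower. Maf alone was differentially expressed, a class that held 1.18% of all tested genes. In 6 of the 9 the groups did not overlap, against 28.4% of all tested genes (16.6% higher, 11.8% lower), and 6 had an unadjusted p under 0.05, against 21.6%. The median log2 fold change of the 9 was 0.06, beside 0.03 for all tested genes. The split of all calls depended on scaling, with 430 genes higher and 320 lower as deposited and 348 higher and 622 lower after the libraries were centred on their medians. The 3 members that passed kept their direction and their call under that scaling.

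**Figure D1:**
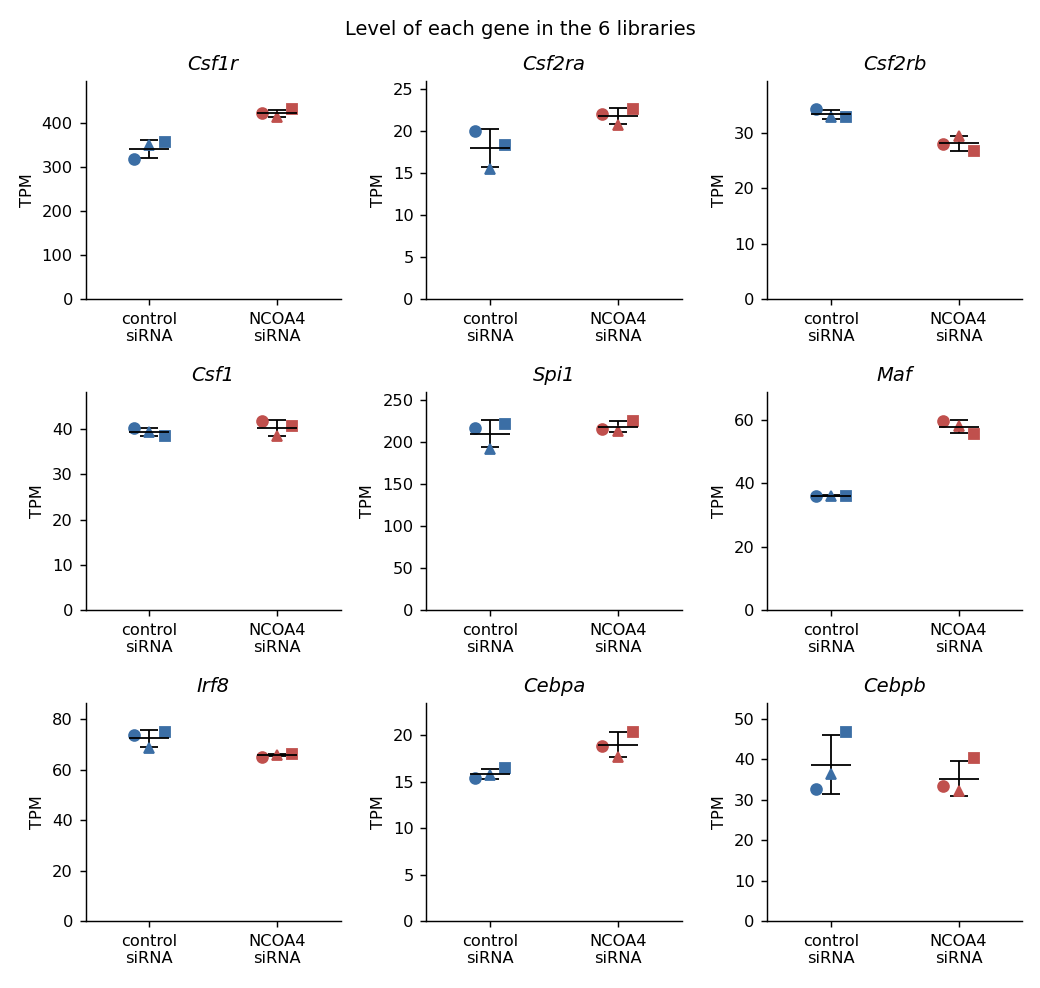
Level in TPM (y axis, from 0) of the 9 genes in the control siRNA (blue) and NCOA4 siRNA (red) libraries. Circles, triangles and squares are replicates 1, 2 and 3, which were not treated as paired, long bars the mean and whiskers the SD. The groups lie apart for Csf1r, Csf2ra, Csf2rb, Maf, Irf8 and Cebpa and overlap for Csf1, Spi1 and Cebpb.

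The order of the mean levels over the 6 libraries ran from Csf1r through Spi1, Irf8, Maf, Csf1, Cebpb, Csf2rb and Csf2ra to Cebpa. Most neighbours in this order were separate within each group. The exceptions were Csf1 and Cebpb, whose ranges overlapped in both groups, and Cebpb with Csf2rb and Csf2ra with Cebpa, whose ranges overlapped with control siRNA only. Maf changed its place. With control siRNA its highest value, 36.2 TPM, was below the lowest of Csf1, 38.5 TPM, and with NCOA4 siRNA its lowest value, 55.7 TPM, was above the highest of Csf1, 41.9 TPM.

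Csf1r (ENSMUSG00000024621, chromosome 18, 61100598 to 61132149, plus strand, GRCm38) was the most abundant of the 9. Its level was 318, 349 and 356 TPM with control siRNA and 422, 414 and 430 TPM with NCOA4 siRNA, on 10558 to 14989 reads. Every NCOA4 siRNA library was above every control library. The mean rose from 341 ± 20.02 to 422 ± 8.17 TPM (SD, n = 3), a log2 fold change of 0.31 (SE 0.0507, limma adjusted p = 0.0218). The lowest control value was that of replicate 1, the library that stood apart, and without it the log2 fold change was 0.26 (adjusted p = 0.0103). The call was lost when NCOA4 siRNA replicate 1, 2 or 3 was left out (adjusted p = 0.104, 0.0934 and 0.102). Csf1r shares 873 of its 5774 exonic bases with Hmgxb3 on the opposite strand, which held 13.7 to 15.9 TPM. The libraries keep strand, but whether the counting used it is not given in the sources used here, so reads of the shared stretch cannot be told apart.

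Among 10037 genes with a mean of at least 5 TPM, the profiles over the 6 libraries nearest to that of Csf1r were those of Wdr6, Abca3 and Zfp740. Their root mean square distances from it, on log2(TPM + 0.5) centred per gene, were 0.0131, 0.0166 and 0.0198. Wdr6 stood at 67.0, 73.2 and 73.3 TPM with control siRNA and 87.9, 87.1 and 91.0 TPM with NCOA4 siRNA, so that it shared with Csf1r the low control replicate 1.

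Csf1, the ligand of this receptor, was transcribed by the cells themselves. It held 40.3, 39.2 and 38.5 TPM with control siRNA and 41.9, 38.4 and 40.7 TPM with NCOA4 siRNA. The groups overlapped, and the means of 39.3 ± 0.902 and 40.3 ± 1.77 TPM (SD, n = 3) gave a log2 fold change of 0.03 (SE 0.0489, limma adjusted p = 0.732), which turned to -0.02 after median centring. Within each library Csf1r exceeded Csf1 by 7.82, 8.79 and 9.16 times with control siRNA and by 9.97, 10.7 and 10.5 times with NCOA4 siRNA. This ratio does not depend on scaling between libraries. On the log2 scale it moved from 3.10 ± 0.118 to 3.37 ± 0.0501 (SD, n = 3), a factor of 1.21 without overlap (two-sided exact permutation over libraries, p = 0.1, which is the least that 3 against 3 allows). Csf1 lies on chromosome 3 (ENSMUSG00000014599, 107741048 to 107760469, minus strand).

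Of the GM-CSF receptor chains, the beta chain passed the test, lower with NCOA4 siRNA, and the alpha chain did not. Csf2ra (ENSMUSG00000059326, chromosome 19, 61223957 to 61228429, minus strand), the ligand-binding chain, held 19.96, 15.5 and 18.3 TPM with control siRNA and 21.9, 20.7 and 22.5 TPM with NCOA4 siRNA, on 269 to 390 reads. The groups did not overlap, but the control libraries spread widely, and the log2 fold change of 0.28 (SE 0.0957) did not pass (limma adjusted p = 0.157). Csf2rb (ENSMUSG00000071713, chromosome 15, 78325752 to 78353847, plus strand), the signalling chain, held 34.3, 33.0 and 32.9 TPM with control siRNA and 28.1, 29.6 and 26.8 TPM with NCOA4 siRNA. Every NCOA4 siRNA library was below every control library. The mean fell from 33.4 ± 0.759 to 28.1 ± 1.39 TPM (SD, n = 3), a log2 fold change of -0.24 (SE 0.0523, limma adjusted p = 0.0470). This call was close to the threshold, and leaving out any of the 6 libraries took it above, with adjusted p from 0.0786 without control siRNA replicate 1 to 0.163 without NCOA4 siRNA replicate 1.

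The ratio of Csf2ra to Csf2rb was 0.588, 0.477 and 0.563 with control siRNA and 0.786, 0.706 and 0.843 with NCOA4 siRNA. The alpha chain was thus the scarcer transcript in every library. On the log2 scale the ratio moved from -0.89 ± 0.160 to -0.37 ± 0.130 (SD, n = 3), a factor of 1.44 without overlap (two-sided exact permutation over libraries, p = 0.1, the least possible). The chains lay apart in opposite directions, as given above, so their ratio could not overlap. Its p therefore adds nothing to the values of the single chains.

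Csf2rb has a close neighbour on its chromosome, Csf2rb2 (78282507 to 78305721, minus strand), the beta chain specific to IL-3, and reads from the parts that both genes share cannot be assigned with certainty. Of the 75-base windows of the Csf2rb transcripts, 7.15% also occur in Csf2rb2, as do 2.30% of its windows of 150 bases, the length of the reads. No 75-base window of the other 8 genes occurs in a transcript of another gene in the same orientation. This search did not cover opposite strands, where Csf1r, Maf and Cebpb share exonic bases with other genes. The coding sequences of the pair are 93.0% identical over 2701 aligned columns, with 110 mismatches. A stretch of both, from coding base 988 to 1107, is shown. Of 1527 gap-free windows of 120 bases none holds more differences, so it is not typical of the pair. Capitals mark the 10 bases that differ, and the runs between them are identical.
Csf2rb: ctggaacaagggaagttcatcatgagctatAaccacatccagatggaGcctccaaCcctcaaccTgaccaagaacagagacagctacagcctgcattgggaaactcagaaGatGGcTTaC
Csf2rb2: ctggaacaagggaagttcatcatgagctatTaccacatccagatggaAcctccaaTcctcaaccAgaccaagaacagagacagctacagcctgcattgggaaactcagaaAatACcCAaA

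A read from such a stretch is assigned by the bases in capitals. Csf2rb2 held 21.8, 19.8 and 18.8 TPM with control siRNA and 25.3, 21.3 and 21.1 TPM with NCOA4 siRNA. Its groups overlapped, and its log2 fold change of 0.16 (SE 0.0901) did not pass (limma adjusted p = 0.369). How far shared reads bear on the lower Csf2rb level was not tested.

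Spi1, which encodes PU.1, was the most abundant transcription factor of the set and did not pass the test. It held 217, 192 and 221 TPM with control siRNA and 216, 213 and 225 TPM with NCOA4 siRNA. The groups overlapped, and the means of 210 ± 15.9 and 218 ± 6.46 TPM (SD, n = 3) gave a log2 fold change of 0.06 (SE 0.0610, limma adjusted p = 0.643), which was near 0 and negative after median centring and without control siRNA replicate 2. Spi1 (ENSMUSG00000002111) lies at 91082390 to 91115756 on the plus strand of chromosome 2.

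Maf (ENSMUSG00000055435, chromosome 8, 115682942 to 115707794, minus strand) held 36.1, 36.2 and 35.9 TPM with control siRNA and 59.8, 58.2 and 55.7 TPM with NCOA4 siRNA, on 1544 to 2860 reads. The groups were far apart. The mean rose from 36.1 ± 0.112 to 57.9 ± 2.05 TPM (SD, n = 3), a log2 fold change of 0.67 (SE 0.0429, limma adjusted p = 0.00127), and by p Maf ranked 12 among all tested genes, next to Ncoa4 itself at rank 11. The control libraries differed by a coefficient of variation of 0.310%, less than the 2.44% that counting error alone gives. The SD of the control group is therefore smaller than the precision of its values. Leaving out single libraries kept the log2 fold change between 0.65 and 0.70 and adjusted p between 0.00254 and 0.0184.

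**Figure D2:**
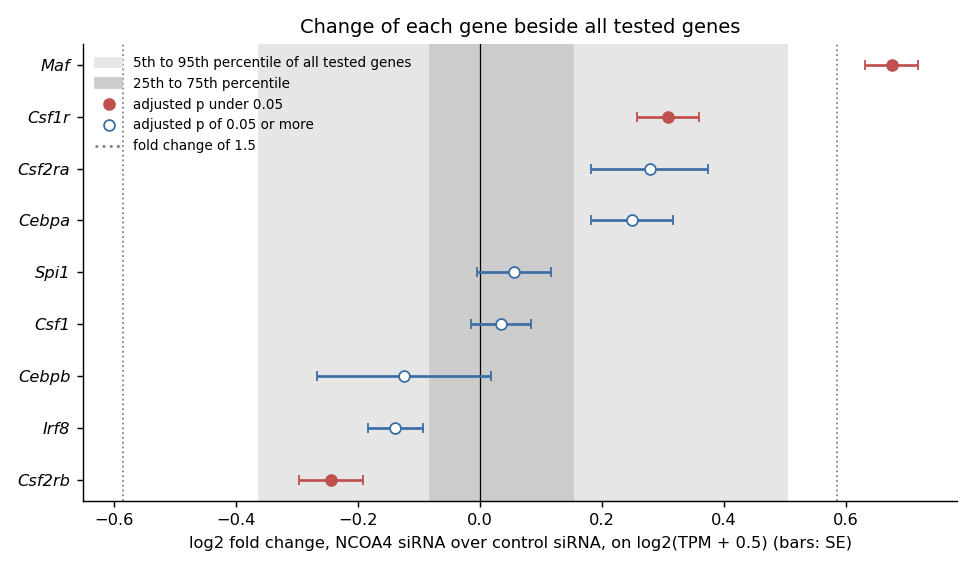
Log2 fold change (x axis, NCOA4 siRNA over control siRNA, with SE) of the 9 genes beside the spread of all 13829 tested genes (shaded). Filled red points passed at an adjusted p under 0.05 and dotted lines mark a fold change of 1.5. Maf at 0.67 lies beyond the line and beyond the 95th percentile of all genes, 0.50, and the other 8 lie within the shaded range.

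The C/EBP factors, which direct myeloid commitment (C/EBPα) and the inflammatory response (C/EBPβ), did not pass. Cebpa (ENSMUSG00000034957, chromosome 7, 35119293 to 35121928, plus strand), the scarcest of the 9, held 15.4, 15.8 and 16.4 TPM with control siRNA and 18.9, 17.7 and 20.4 TPM with NCOA4 siRNA, on 226 to 324 reads. Its groups did not overlap, and its log2 fold change was 0.25 (SE 0.0672, limma adjusted p = 0.0890). Cebpb (ENSMUSG00000056501, chromosome 2, 167688915 to 167690418, plus strand) held 32.8, 36.4 and 46.8 TPM with control siRNA and 33.3, 32.1 and 40.2 TPM with NCOA4 siRNA.

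Cebpb was the most variable of the 9, with a coefficient of variation of 18.8% over the control libraries against 5.53% from counting alone. In each group replicate 3 was the highest. Its log2 fold change of -0.12 (SE 0.143, limma adjusted p = 0.665) became 0.02 without control siRNA replicate 3. Cebpb shares 312 of its 1504 exonic bases with the opposite-strand gene Tmem189, which held 189 to 251 TPM, several times the level of Cebpb, and reads of that stretch cannot be told apart if the counting did not use strand. The ratio of Cebpb to Cebpa was 2.09, 2.27 and 2.79 with control siRNA and 1.75, 1.79 and 1.95 with NCOA4 siRNA, a log2 difference of -0.37 without overlap (two-sided exact permutation over libraries, n = 3 per group, p = 0.1, the least possible).

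**Figure D3:**
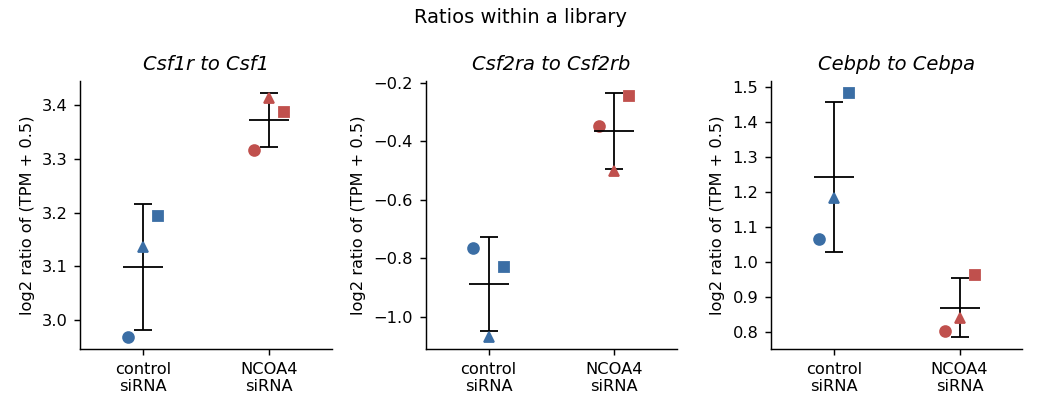
Log2 ratios of the levels of 2 genes within each library (y axes do not start at 0), control siRNA in blue and NCOA4 siRNA in red, with mean and SD. The groups do not overlap in any of the 3 ratios, with differences of 0.27 (Csf1r to Csf1), 0.52 (Csf2ra to Csf2rb) and -0.37 (Cebpb to Cebpa). Among single tested genes 28.4% do not overlap, and the share for ratios of other gene pairs was not computed. Csf1r, Csf2ra and Csf2rb already lay apart as single genes.

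Irf8 (ENSMUSG00000041515, chromosome 8, 120736358 to 120756694, plus strand), which encodes the interferon regulatory factor that directs monocyte over granulocyte fate, held 73.6, 68.6 and 74.9 TPM with control siRNA and 65.1, 65.8 and 66.0 TPM with NCOA4 siRNA. The NCOA4 siRNA values were all lower and close together, with a coefficient of variation of 0.697%, less than the 1.94% that counting error alone gives. They are thus closer to each other than the precision of the values. The log2 fold change was -0.14 (SE 0.0452) and did not pass (limma adjusted p = 0.141). Irf1, the family member known as an early target of interferon gamma, did pass. It held 15.1, 15.6 and 14.6 TPM with control siRNA and 20.8, 22.2 and 23.7 TPM with NCOA4 siRNA, a log2 fold change of 0.54 (SE 0.0645, limma adjusted p = 0.00776).

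Of the 9 genes, 5 have a promoter in the RefSeq table (GRCm38.p6, a short window around the start). In these windows GAS, the letters to which STAT5 dimers are known to bind (TTCNNNGAA, the same on both strands), occurred only before Irf8, and 8.30% of 32851 promoters hold it. The Irf8 stretch, chr8:120736157-120736243 (plus strand), and the Irf1 stretch, chr11:53769894-53769962 (plus strand), are shown since these IRF genes stood on opposite sides of 0, and capitals mark GAS. A match is a description and not a site.
Irf8: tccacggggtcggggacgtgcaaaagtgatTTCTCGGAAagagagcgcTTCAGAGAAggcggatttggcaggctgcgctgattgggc
Irf1: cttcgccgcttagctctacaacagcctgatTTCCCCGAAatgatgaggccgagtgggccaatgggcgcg

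Irf8 holds 2 matches, which begin 171 and 153 bases before its start, and Irf1 holds 1 match, which begins 90 bases before. The other motifs were searched on both strands over the whole windows, which run past the start. The GC box (GGGCGG), which 35.7% of all promoters hold, occurred in windows of Irf8, Csf1, Csf2ra and Cebpb. The TATA box (TATAAA, 13.6%) occurred in windows of Irf8, Cebpa and Cebpb. The CCAAT box (CCAAT, 37.4%) occurred in a window of Irf8 alone. Irf8 has 2 windows, and all its matches lay in the same window. The ETS core GGAAGT (23.8%), the C/EBP letters TTGCNNAA (10.8%), the E-box CACGTG (7.15%) and the AP-1 letters TGANTCA (7.81%) were in none of these windows.

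The gene lists that follow were also chosen with earlier results of these data known, so their counts are descriptions. The ligands and receptors around the members were sparse. Of 9 CSF and related ligands 4 were tested (Csf1, Kitl, Flt3l and Il34, named after their values were seen) and 0 passed with limma, 0 at an unadjusted p under 0.05 and 0 with voom, while the others, GM-CSF among them, had a mean under 0.5 TPM. Of 10 CSF and related receptors 7 were tested, 2 rose and 1 fell, with a median log2 fold change of 0.28 beside 0.03 for all tested genes. Among the tested receptors 42.9% passed, beside 5.42% of all tested genes. Besides Csf1r and Csf2rb the one that passed was Csf3r, the receptor of granulocyte CSF, at 8.20, 7.59 and 8.56 TPM with control siRNA and 10.9, 10.8 and 10.3 TPM with NCOA4 siRNA. Its log2 fold change was 0.38 (SE 0.0720, limma adjusted p = 0.0326), and the call was lost without any of the 6 libraries (adjusted p 0.0566 to 0.142). The list then held 1 passing receptor without any control library and 0 without any NCOA4 siRNA library.

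Of 36 tested genes on the list of CSF receptor signalling, 7 rose and 2 fell, with a median log2 fold change of 0.09. These 25% that passed stand beside 5.42% of all tested genes. The list is broad, and Gas6, named below, is a ligand of another receptor. Tyk2, a Janus kinase, rose by 0.43 on the log2 scale, from 18.3 ± 0.497 to 24.8 ± 0.989 TPM (SD, n = 3, limma adjusted p = 0.00885), Gas6, a ligand of MERTK, by 0.27 (adjusted p = 0.0164) and Pik3r1, the regulatory subunit of PI3-kinase, by 0.26 (adjusted p = 0.0330). The lipid phosphatase gene Inpp5d rose by 0.20 (adjusted p = 0.0434), and Pik3ap1 and Syk, named after their values were seen, rose as well. The adaptor Grb2, which links CSF1R to RAS, fell by 0.25 on the log2 scale (adjusted p = 0.0248), as did Pim1, a kinase induced by STAT5, at the edge of the threshold (adjusted p = 0.0498). Jak2, Stat5a and Stat5b, the known effectors of the beta chain and named after their values were seen, did not pass, with log2 fold changes of -0.24, 0.18 and 0.07. The list's 9 calls became 8, 5 and 5 without control siRNA replicates 1, 2 and 3, and 2, 0 and 0 without NCOA4 siRNA replicates 1, 2 and 3.

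Of 47 tested myeloid transcription factors, 5 of which are members, 2 rose and 3 fell, with a median log2 fold change of 0.06. In this list 10.6% passed, beside 5.42% of all tested genes, of which 21.6% had an unadjusted p under 0.05. By unadjusted p under 0.05, 14 were higher and 9 lower, and with voom 9 rose and 5 fell, so the balance of directions depended on the test. Those higher were Maf and Irf1. Those lower were Ets2, an ETS factor downstream of RAS (105 ± 2.91 to 90.1 ± 3.24 TPM, SD, n = 3, log2 fold change -0.22, limma adjusted p = 0.0348), Bhlhe40, a factor known to favour macrophage proliferation (69.7 ± 3.09 to 59.6 ± 1.77 TPM, -0.22, adjusted p = 0.0470), and Klf6 (69.5 ± 2.29 to 60.9 ± 0.968 TPM, -0.19, adjusted p = 0.0498). The calls of Bhlhe40 and Klf6 were lost without any of the 6 libraries. The 5 calls became 4, 2 and 2 without control siRNA replicates 1, 2 and 3, and 2, 1 and 3 without NCOA4 siRNA replicates 1, 2 and 3, and Maf was always among them.

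Of 32 tested genes that PU.1 and C/EBP factors are known to regulate, 11 rose and 3 fell, with a median log2 fold change of 0.21. Of these 5 were differentially expressed and higher and 1 lower, beside 0.861% and 0.318% of all tested genes. By adjusted p alone 43.8% of the list passed, beside 5.42% of all tested genes. Mrc1, the mannose receptor, rose from 91.8 ± 4.56 to 167 ± 1.40 TPM (SD, n = 3, log2 fold change 0.86, limma adjusted p = 0.00118). The IgG receptor gene Fcgr1 rose by 0.59 (adjusted p = 0.00436), the pattern recognition receptor gene Tlr2 by 0.59 (adjusted p = 0.00451) and the NADPH oxidase subunit gene Ncf4 by 0.31 (adjusted p = 0.00660). Those that fell were the chemokine genes Ccl3, from 1348 ± 141 to 698 ± 55.2 TPM (log2 fold change -0.95, adjusted p = 0.00391), and Ccl2, and the LPS co-receptor gene Cd14, which was named after its values were seen (-0.27, adjusted p = 0.0361). Csf1r and Csf2ra stand on this list too. Its 14 calls became 13, 12 and 11 without control siRNA replicates 1, 2 and 3, and 7, 4 and 6 without NCOA4 siRNA replicates 1, 2 and 3.

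Of 17 tested target genes of IRF8 and MAF, 10 rose and 0 fell by limma, with a median log2 fold change of 0.33. The share that passed was 58.8%, beside 5.42% of all tested genes, of which 21.6% had an unadjusted p under 0.05. The complement C1q chains C1qa and C1qc had the smallest adjusted p. C1qa held 147, 130 and 131 TPM with control siRNA and 224, 221 and 235 TPM with NCOA4 siRNA, a log2 fold change of 0.74 (SE 0.0580, limma adjusted p = 0.00216). C1qc rose from 116 ± 6.21 to 189 ± 9.48 TPM (SD, n = 3, log2 fold change 0.70, adjusted p = 0.00228) and C1qb from 297 ± 16.3 to 394 ± 18.0 TPM (0.41, adjusted p = 0.0116). Mertk, the receptor kinase of apoptotic cell uptake, rose by 0.48 (adjusted p = 0.00965) and Cst3, cystatin C, by 0.31 (adjusted p = 0.0285). Those not yet named were Psmb9 and Tap1 of antigen processing, the cytokine gene Il18 and the platelet factor gene Pf4, given after their values were seen. The 10 calls became 10, 6 and 8 without control siRNA replicates 1, 2 and 3, and 3, 2 and 2 without NCOA4 siRNA replicates 1, 2 and 3. By unadjusted p under 0.05, 13 were higher and 1 lower, and with voom 11 rose and 1 fell. Maf rose beside these genes, and its part in their change was not tested.

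Of 24 tested genes known to respond when CSF1 drives growth, 0 rose by limma and 8 fell, with a median log2 fold change of -0.19. Here 33.3% passed, beside 5.42% of all tested genes, of which 21.6% had an unadjusted p under 0.05. By unadjusted p under 0.05, 2 were higher and 13 lower, and with voom 1 rose and 10 fell. Odc1, the rate-limiting enzyme of polyamine synthesis, fell most clearly, from 581, 633 and 593 TPM with control siRNA to 370, 364 and 361 TPM with NCOA4 siRNA (log2 fold change -0.72, SE 0.0434, limma adjusted p = 0.00127). The AP-1 subunit genes Jun (123 ± 5.63 to 87.5 ± 2.99 TPM, SD, n = 3, -0.49, adjusted p = 0.00466) and Fosl1 (51.1 ± 8.58 to 27.4 ± 0.927 TPM, -0.88, adjusted p = 0.00969) fell. The urokinase gene Plau fell from 699 ± 68.0 to 472 ± 14.1 TPM (-0.56, adjusted p = 0.0102), the chemokine gene Ccl2 from 668 ± 46.9 to 473 ± 35.0 TPM (-0.50, adjusted p = 0.0143) and the cyclin D1 gene Ccnd1 from 289 ± 1.81 to 252 ± 4.61 TPM (-0.20, adjusted p = 0.0239). The other 2, named after their values were seen, were the urokinase receptor gene Plaur and the chemokine gene Ccl7. Fos, Egr1 and Myc, central immediate-early genes also named after their values were seen, did not pass, with log2 fold changes of 0.18, 0.05 and -0.19. The 8 calls became 8, 7 and 6 without control siRNA replicates 1, 2 and 3, and 3, 2 and 2 without NCOA4 siRNA replicates 1, 2 and 3.

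**Figure D4:**
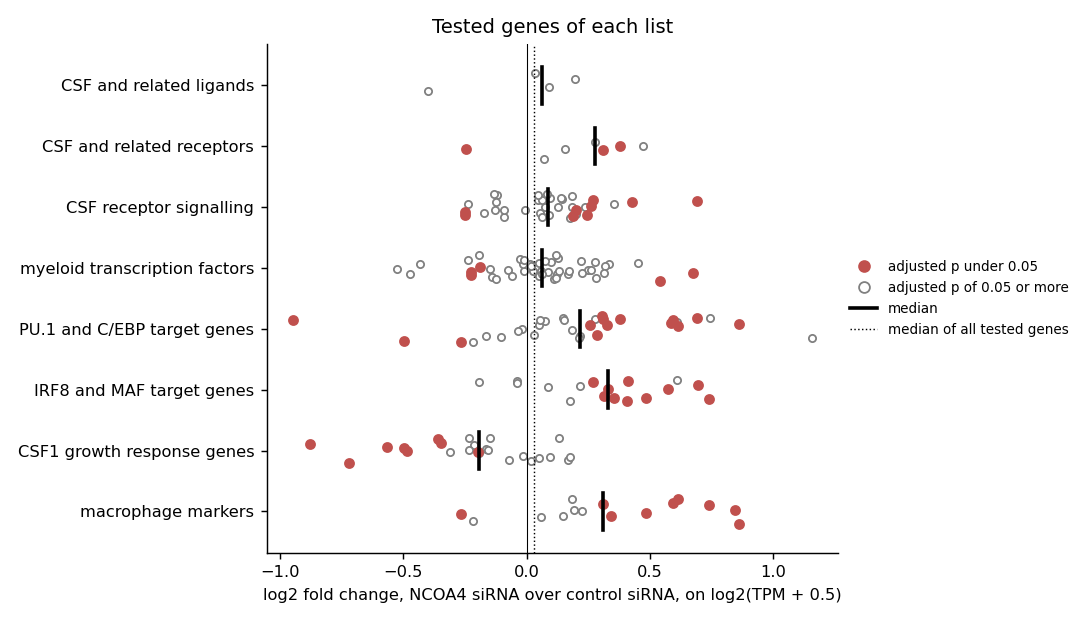
Log2 fold change (x axis, NCOA4 siRNA over control siRNA) of each tested gene in 8 lists, filled red where it passed at an adjusted p under 0.05, with the list's median as a bar and the median of all tested genes, 0.03, as a dotted line. Heights within a list are arbitrary. Target genes of IRF8 and MAF passed on the right side only and CSF1 growth response genes on the left side only.

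Markers of macrophages were higher on balance. Of 15 tested 60% passed, beside 5.42% of all tested genes. Among the 15, 8 rose and 1 fell, with a median log2 fold change of 0.31. Beside Csf1r, Mrc1, C1qa, Fcgr1 and Mertk these were Aif1, an actin-binding protein gene (8.51 ± 0.760 to 15.7 ± 0.352 TPM, SD, n = 3, log2 fold change 0.85, limma adjusted p = 0.00312), the sialic acid receptor gene Siglec1 (0.34, adjusted p = 0.0104) and Adgre1, which encodes F4/80 and was named after its values were seen (0.61, adjusted p = 0.0248). Cd14 fell. Cd68, named after its values were seen, was lower without overlap but did not pass. It went from 1832 ± 198 to 1570 ± 55.7 TPM (SD, n = 3, log2 fold change -0.22, limma adjusted p = 0.178). Over the list, 12 were higher and 2 lower by unadjusted p under 0.05, and with voom 12 rose and 1 fell. The lists overlap, since Csf1r, Mrc1, Fcgr1, C1qa, Mertk, Cd14 and others stand on more than a single list and are counted under each. The 9 calls became 9, 9 and 8 without control siRNA replicates 1, 2 and 3, and 4 without each NCOA4 siRNA replicate.

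Markers of lymphocytes, mast and erythroid cells, fibroblasts and epithelium were near 0, and most of those of neutrophils and dendritic cells were under 0.5 TPM. The summed level of 10 neutrophil markers was 27.5 to 33.0 TPM with control siRNA and 26.5 to 31.6 TPM with NCOA4 siRNA. Nearly all of it was S100a8 (mean of 20.4 TPM), at a level like those of the scarcer members, and Csf3r (9.40 TPM), below every member. Of these markers 8, the granule genes Mpo, Ltf and Camp included, had a mean under 0.5 TPM. For 9 dendritic cell markers the sums were 13.6 to 16.9 and 15.5 to 15.8 TPM, most of it Batf3 (mean of 12.7 TPM). Sums over 10 lymphocyte, 8 mast and erythroid, and 11 fibroblast and epithelial markers stayed between 0.0864 and 2.27 TPM in every library. The genes of this paragraph apart from Csf3r were named after their values were seen.

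The calls depended on which library was left out. Over all tested genes, 750 passed with 6 libraries, 807, 495 and 380 without control siRNA replicates 1, 2 and 3, and 156, 127 and 182 without NCOA4 siRNA replicates 1, 2 and 3. Within the 9 genes, Maf passed in every case, Csf1r passed without each control library and not without any NCOA4 siRNA library, and Csf2rb passed in no case. Csf2ra, Csf1, Spi1, Irf8, Cebpa and Cebpb did not pass with any library left out. Of the other genes named for their lists, Mrc1, Fcgr1, Tlr2, Ccl3, C1qa, C1qc, Aif1, Odc1 and Jun also kept their calls throughout. The other 34 of 43 list genes that passed lost the call without at least 1 library, among them Irf1 without NCOA4 siRNA replicate 2 (adjusted p = 0.0547) and Tyk2 without NCOA4 siRNA replicates 2 and 3 (0.0542 and 0.0521).

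**Figure D5:**
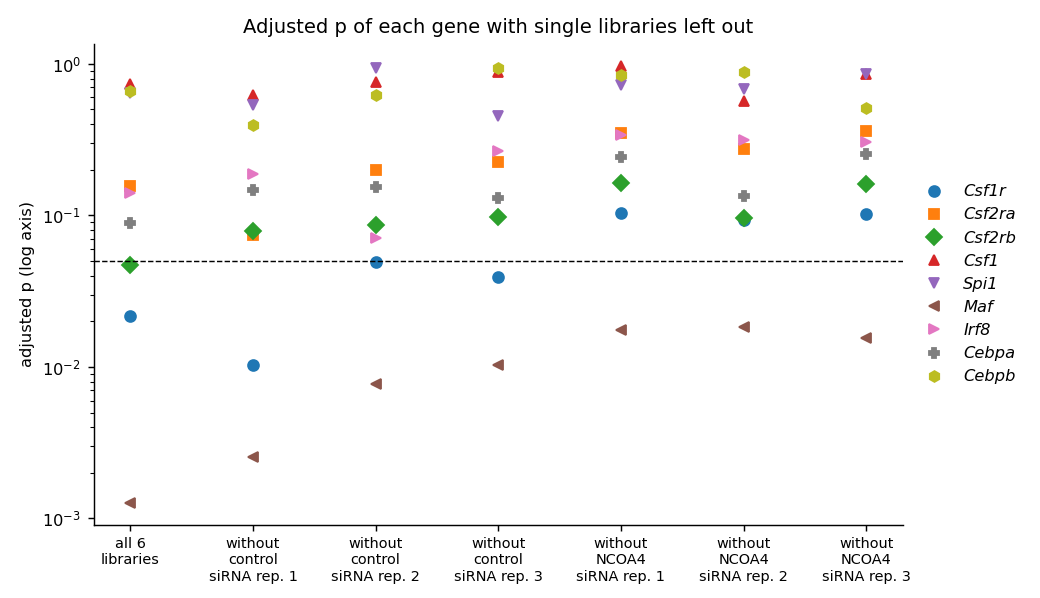
Adjusted p (y axis, log scale) of the 9 genes with all 6 libraries and with each library left out in turn (x axis), and the threshold of 0.05 as a dashed line. Maf lies below the line in all 7 columns, Csf1r in 4, and Csf2rb with all 6 libraries only.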

How the data were processed

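RNA from 3 control siRNA and 3 NCOA4 siRNA cultures of J774 cells was made into TruSeq stranded mRNA libraries. The authors deposited 1 TPM table per library, in which the reads of a gene are set against its length and each library sums to 1000000, and libraries were not scaled to each other. The submitters' processing notes name Trimmomatic 0.33, FastQC, HISAT2 2.1.0, featureCounts, edgeR and the build mm10. The annotation release and the strand setting are not given in the sources used here. Names and positions came from GENCODE M21, which holds 55227 of the 55487 identifiers.

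Genes with a mean of at least 0.5 TPM (13829) were tested with limma 3.58.1 (R 4.3.3) on log2(TPM + 0.5), with lmFit, eBayes with a trend and Benjamini-Hochberg adjustment over all of them. A fold change on this scale understates the change of low genes. The script was tested on simulated data. Single values were compared by an exact permutation test, whose smallest p is 0.1. Whole reads were rebuilt from TPM and exon length, and 98.45% of 21096 genes above 0 came out whole within 0.02 reads in all 6 libraries. They gave the depth, which covers counting error only, and an alternative with voom.

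The members and the 13 gene lists were chosen with earlier results of these data known. The genes named are the members, Ncoa4, Csf2rb2, up to 6 passing genes of each list with the smallest adjusted p, and the 3 nearest profiles to Csf1r. Some genes that this rule selects are left out of the text. Motifs were searched with Python 3.11.15. The 16 alternatives were a pseudocount of 1 or of 0.1, all genes above 0, only genes with a mean of at least 5 TPM, median centring, quantile normalization, no mitochondrial genes, eBayes without a trend, voom, a replicate block, and omission of each library in turn.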

Additional observations from a re-analysis of the deposited data

How the results depend on the processing

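Of the 16 alternatives, all kept Maf as the one differentially expressed gene of the set, with adjusted p from 5.2e-07 to 0.0258. Leaving out single libraries gave these ranges. Members higher numbered 1 to 2, lower 0 to 0 and differentially expressed 1 to 1. The log2 fold change ran from 0.26 to 0.34 for Csf1r, 0.18 to 0.36 for Csf2ra, -0.28 to -0.21 for Csf2rb, 0.0068 to 0.07 for Csf1, -0.0072 to 0.10 for Spi1, 0.65 to 0.70 for Maf, -0.18 to -0.11 for Irf8, 0.20 to 0.30 for Cebpa and -0.23 to 0.02 for Cebpb. Spi1 turned to -0.0072 without control siRNA replicate 2 and Cebpb to 0.02002 without control siRNA replicate 3. Calls numbered 0 to 0 of the ligands, 0 to 1 of the receptors, 0 to 8 of the signalling genes, 1 to 4 of the transcription factors, 4 to 13 of the PU.1 and C/EBP targets, 2 to 10 of the IRF8 and MAF targets, 2 to 8 of the CSF1 growth response genes and 4 to 9 of the macrophage markers. The log2 ratio differences ran from 0.21 to 0.32 (Csf1r to Csf1), 0.43 to 0.59 (Csf2ra to Csf2rb) and -0.46 to -0.25 (Cebpb to Cebpa), where the smallest exact p that 5 libraries allow is 0.1. For Cebpb to Cebpa the exact permutation p was 0.2 without NCOA4 siRNA replicate 1, 2 or 3. For the other ratios it stayed at 0.1.

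Without a trend in eBayes, 1 member was higher and 0 lower, Csf1r stood at 0.31 (adjusted p = 0.0630) and Csf2rb at -0.24 (0.0869), and calls numbered 1 (receptors), 3 (signalling), 2 (transcription factors), 9 (PU.1 and C/EBP targets), 4 (IRF8 and MAF targets) and 5 (growth response). Without a filter on low values, 0 members were lower, Csf2rb at -0.24 (0.0644), and 1 receptor, 3 transcription factors and 5 IRF8 and MAF targets passed among more genes tested. Without mitochondrial genes 0 members were lower, with Csf2rb at -0.26 (0.0518). With voom 14 transcription factors passed, 9 higher and 5 lower. Median centring turned Csf1 to -0.0236 (0.827) and Spi1 to -0.0016 (0.992). Over all genes 750 passed, against 499 without a filter, 404 without a trend, 1496 with voom and 127 to 807 with single libraries left out, and 163 were differentially expressed, against 77 to 172 with single libraries left out and 218 with voom. The cause of these differences was not tested.

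Whether the replicate numbers pair the samples is not given in the labels. Same-numbered libraries had correlations of 0.0283, -0.0185 and 0.0229 of their deviations from the group means. Libraries numbered 1 and 3 correlated best with their own number and those numbered 2 did not. Correlations this near 0, from 3 libraries per group, cannot decide whether the samples are paired. With the replicate block 161 genes passed and 87 were differentially expressed, 1 member was higher and 0 lower, Csf1r stood at 0.31 (adjusted p = 0.0711) and Csf2rb at -0.24 (0.126), and calls numbered 0 of the receptors, 0 of the signalling genes, 1 of the transcription factors, 5 of the PU.1 and C/EBP targets, 2 of the IRF8 and MAF targets, 5 of the growth response genes and 4 of the macrophage markers.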
